A study of Mus musculus with 6 samples.

Results

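The Dlk1-Dio3 cluster is an imprinted domain on distal mouse chromosome 12, and 6 of its genes are described here in hair follicle cells of newborn Polycomb mutant and control mice. The members were chosen by gene symbol, namely Dlk1, Meg3, Rtl1, Rian, Mirg and Dio3, and all 6 had a row among the 24453 symbols of each count file. The cluster was proposed with results of the mutant and control comparison in view, so the members' differences are given as a description, with a standard error (SE) and no p-value.

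RNA was sequenced from cells sorted out of back skin at postnatal day 0, in 3 libraries of the genotype Ring1a-/- Ring1b-/I53A (HF_I53A) and 3 libraries named only as control (HF_CTL). Ring1a and Ring1b are the ubiquitin ligase subunits of Polycomb repressive complex 1 (PRC1), and I53A is a substitution in Ring1b that weakens ubiquitination of histone H2A by the complex. The mutants thus combine loss of Ring1a, a null allele of Ring1b and the I53A allele, and no group separates them. The labels give no Cre driver and do not say whether the 3 libraries of a group came from separate animals, so the spread between libraries may be partly technical.

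In an imprinted domain the copies inherited from father and mother are transcribed differently. At this cluster the protein-coding genes Dlk1, Rtl1 and Dio3 are known to be expressed from the paternal copy, and the noncoding RNAs Meg3, Rian and Mirg, which carry many snoRNAs and miRNAs, from the maternal copy. A methylated control region on the paternal copy between Dlk1 and Meg3 keeps the noncoding unit silent there. Gene counts do not tell the parental copies apart, so "paternal" and "maternal" below stand for this background and not for measured alleles.

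Library totals ran from 14335156 to 18811587 counts. Levels are given as CPM, read counts scaled to library size. Ring1, the gene of Ring1a, had 3.23, 7.10 and 4.88 CPM in HF_I53A, against 16.8, 22.1 and 21.1 CPM in HF_CTL, and fell (log2 fold change -1.98, SE 0.33, edgeR quasi-likelihood test, adjusted p = 0.0113). Rnf2, which encodes Ring1b, was at 67.1 ± 3.68 CPM in HF_I53A and 59.8 ± 6.93 CPM in HF_CTL (SD, n = 3 each) and did not pass (adjusted p = 0.736). All 17 listed follicle keratinocyte markers had reads in every library. Krt5, a basal keratin, was at 8465 to 11750 CPM in HF_I53A and 7437 to 8840 CPM in HF_CTL, and Ly6a, which encodes Sca1, at 1.003 to 1.49 CPM in HF_I53A and 0.502 to 1.31 CPM in HF_CTL. The interfollicular epidermis markers with a row, 9 of 10 listed, also had reads in every library and summed to 3073 to 4786 CPM in HF_I53A and 4478 to 6238 CPM in HF_CTL, so the markers do not settle which of these epidermal cells were sorted.

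The cluster spans 828 kb from the start of Dlk1 to the end of Dio3 (chr12:109452823-110281097, GRCm38, GENCODE M21). Dlk1 (109452823 to 109463336), Meg3 (109541001 to 109571726), Rian (109603940 to 109661716), Mirg (109729764 to 109749460) and Dio3 (110279068 to 110281097) lie on the plus strand. Rtl1 (109589193 to 109600330) lies on the minus strand between Meg3 and Rian. The promoter windows of the outer paternal genes and of Meg3 are shown because Meg3 differed more between the groups than Dlk1 and Dio3 did. No window was available for Rtl1, and a link between promoter letters and these differences was not tested. They run from 250 bases before to 50 bases after a gene start (GRCm38.p6, plus strand), 5′ to 3′. They lie at chr12:109452573-109452872 for Dlk1, chr12:109540746-109541045 for Meg3 and chr12:110278980-110279279 for Dio3. The start is that of the RefSeq span for Meg3 and Dio3. For Dlk1 it is 109452823, as in GENCODE, while the RefSeq span begins at 109452485, outside the window. Capitals mark the cyclic AMP response element TGACGTCA, the CCAAT box CCAAT and the TATA box TATAAA, searched on both strands.
Dlk1 promoter: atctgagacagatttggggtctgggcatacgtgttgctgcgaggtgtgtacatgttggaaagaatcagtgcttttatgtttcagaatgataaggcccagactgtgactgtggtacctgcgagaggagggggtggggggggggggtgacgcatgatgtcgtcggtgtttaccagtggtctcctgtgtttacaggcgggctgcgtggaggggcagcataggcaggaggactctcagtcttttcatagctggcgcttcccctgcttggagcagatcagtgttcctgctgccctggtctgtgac
Meg3 promoter: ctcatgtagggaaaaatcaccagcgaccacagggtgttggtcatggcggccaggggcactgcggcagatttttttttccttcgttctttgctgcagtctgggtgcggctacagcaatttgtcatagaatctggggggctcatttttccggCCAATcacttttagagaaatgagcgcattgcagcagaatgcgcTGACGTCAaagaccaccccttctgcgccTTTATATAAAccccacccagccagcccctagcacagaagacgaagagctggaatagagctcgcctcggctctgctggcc
Dio3 promoter: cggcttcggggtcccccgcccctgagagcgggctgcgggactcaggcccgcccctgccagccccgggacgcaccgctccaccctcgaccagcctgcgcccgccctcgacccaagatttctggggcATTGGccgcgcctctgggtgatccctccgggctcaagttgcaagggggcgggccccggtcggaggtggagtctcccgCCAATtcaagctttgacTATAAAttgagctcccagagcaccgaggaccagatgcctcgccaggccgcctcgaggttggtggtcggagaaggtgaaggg
The Meg3 window held a cyclic AMP response element starting at base -57, a CCAAT box at -100 and overlapping TATA letters at -29 on the minus and -25 on the plus strand. The Dio3 window held a CCAAT box on each strand, at -125 and -48, and TATA letters at -31. The Dlk1 window held none of these letters. A further Meg3 window at chr12:109545148-109545447 also held none, and had 1 CpG pair. Of 32851 promoter windows of the same length, 1.79% held TGACGTCA, 37.4% CCAAT and 13.6% TATAAA. CpG pairs numbered 25 in the Dio3 window, 13 in Meg3 and 9 in Dlk1, against a median of 7 over all windows. The windows at the RefSeq starts of Rian and Mirg, which lie inside the maternal transcription unit, held 0 and 10.

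All 6 members had a higher mean in HF_I53A than in HF_CTL, and for Dlk1, Meg3, Rtl1 and Rian every HF_I53A library lay above every HF_CTL library. These were 4 of 6 members without overlap, while 12.1% of the 14345 genes tested were higher in HF_I53A without overlap. The contrast had a part in the choice of the cluster, so nothing is read from that count. The filter on low counts kept 5 members and removed Dio3, whose values come from a fit without the filter. Since these are bulk samples, more transcript per cell and more cells that make it cannot be told apart.

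**Figure D1:**
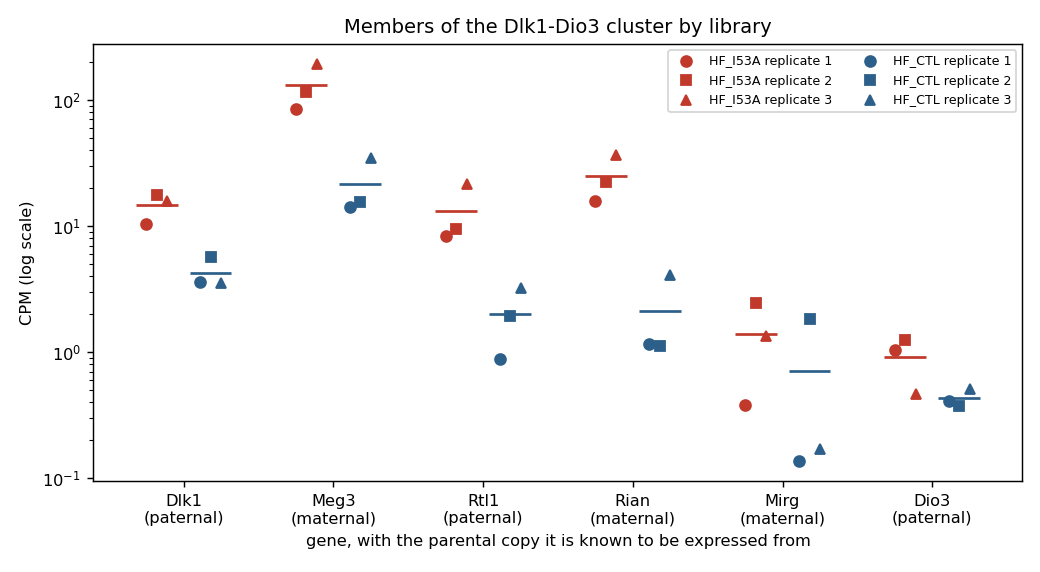
CPM of the 6 members in each library on a log scale, with HF_I53A in red left of HF_CTL in blue, symbols for replicates and a bar at the group mean. Dlk1, Meg3, Rtl1 and Rian did not overlap between the groups, and Mirg and Dio3 did.

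Among the paternally expressed genes, Dlk1 encodes a membrane protein related to the Notch ligands that holds back adipocyte differentiation and is known in skin from dermal progenitors. Dlk1 had 10.4, 17.6 and 15.7 CPM in HF_I53A replicates 1 to 3, against 3.61, 5.65 and 3.52 CPM in HF_CTL replicates 1 to 3. The lowest mutant library thus stood above the highest control library. Dlk1 averaged 14.6 ± 3.72 CPM in HF_I53A and 4.26 ± 1.20 CPM in HF_CTL (SD, n = 3 each), and its log2 fold change was 1.77 (SE 0.34). Leaving out any 1 library kept the log2 fold change of Dlk1 between 1.61 and 2.02, the narrowest range of the members.

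Rtl1 encodes a protein derived from a retrotransposon that is needed in the fetal capillaries of the mouse placenta. Rtl1 had 8.39, 9.42 and 21.7 CPM in HF_I53A, against 0.886, 1.95 and 3.24 CPM in HF_CTL. Replicate 3 was the highest library of both groups, and the groups did not overlap. The log2 fold change was 2.69 (SE 0.54), with means of 13.2 ± 7.38 CPM in HF_I53A and 2.02 ± 1.18 CPM in HF_CTL (SD, n = 3 each), and it was 2.12 without HF_I53A replicate 3 and 3.21 without HF_CTL replicate 3. Rtl1 cannot be read as a purely paternal signal, since the maternal transcription unit crosses it on the other strand and the sources used here do not state whether counting was by strand. In the RefSeq annotation its span (109564900 to 109604418) also overlaps 6830 bases of Meg3 and 474 bases of Rian.

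Dio3 encodes the deiodinase that inactivates thyroid hormone. Dio3 had 19, 21 and 7 reads in HF_I53A, against 6, 6 and 9 reads in HF_CTL, which is 1.04, 1.25 and 0.468 CPM against 0.409, 0.377 and 0.511 CPM. HF_I53A replicate 3, the library with the most Meg3, was within the control range, so the groups overlapped. The log2 fold change of 1.08 was about as large as its SE of 1.01, and with 47 reads in HF_I53A and 21 in HF_CTL a difference was not detectable at this depth. Dio3os, the antisense neighbour of Dio3, had 3 reads in HF_I53A and 1 in HF_CTL.

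Among the maternally expressed RNAs, Meg3 is the long noncoding RNA that starts the unit and has been reported to bind Polycomb repressive complex 2 (PRC2) in mouse embryonic stem cells. Meg3 had the most reads of the members in every library, with 84.1, 115.6 and 192.9 CPM in HF_I53A against 14.04, 15.4 and 34.7 CPM in HF_CTL. It made up 68.6% to 71.8% of the 6 members' reads in HF_I53A and 58.5% to 75.1% in HF_CTL. The log2 fold change was 2.61 (SE 0.41), with means of 131 ± 56.0 CPM in HF_I53A and 21.4 ± 11.6 CPM in HF_CTL (SD, n = 3 each). HF_CTL replicate 3 had more Meg3 than the other controls, and without it the log2 fold change was 3.16.

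Rian, which hosts a row of C/D snoRNAs, had the largest difference. Rian had 15.7, 22.2 and 36.7 CPM in HF_I53A, against 1.16, 1.13 and 4.09 CPM in HF_CTL, or 287, 372 and 549 reads against 17, 18 and 72. The lowest mutant library had 15.7 CPM and the highest control library 4.09 CPM. The log2 fold change was 3.53 (SE 0.54), which placed Rian 96th of the 14345 tested genes counted from the highest log2 fold change, with Rtl1 at rank 209, Meg3 at 226, Dlk1 at 512 and Mirg at 1314. Without HF_CTL replicate 3 the log2 fold change of Rian was 4.44.

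Mirg, the host of the most distal miRNAs, behaved less evenly. It had 7, 41 and 20 reads in HF_I53A, against 2, 29 and 3 reads in HF_CTL. Replicate 2 was the highest library in both groups, and the groups overlapped. The log2 fold change of 0.96 was smaller than its SE of 1.06, and it was 3.10 without HF_CTL replicate 2 and 0.27 without HF_I53A replicate 2. With the replicate number as a block it was 1.47 (SE 0.87).

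Levels of different genes can be compared only per length. Some counted genes of the interval, such as AF357359, are in RefSeq and not in GENCODE M21. The GENCODE lengths may therefore not match the exons counted, and the order below is approximate. On the scale of CPM per kb of GENCODE exons, the order of levels in HF_I53A was Meg3 (7.23 ± 3.10), Dlk1 (2.58 ± 0.658), Rtl1 (2.07 ± 1.16), Rian (1.36 ± 0.589), Dio3 (0.453 ± 0.1999) and Mirg (0.190 ± 0.141; SD, n = 3 each). Dlk1 and Rtl1 were within their spread of each other, as were Rtl1 and Rian. In HF_CTL the order was Meg3 (1.18 ± 0.640), Dlk1 (0.753 ± 0.213), Rtl1 (0.318 ± 0.185), Dio3 (0.213 ± 0.0345), Rian (0.117 ± 0.0932) and Mirg (0.0972 ± 0.132). Rian thus stood above Dio3 in the mutants and below it in the controls, where Rian, Mirg and Dio3 lay within about their spread of each other.

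**Figure D2:**
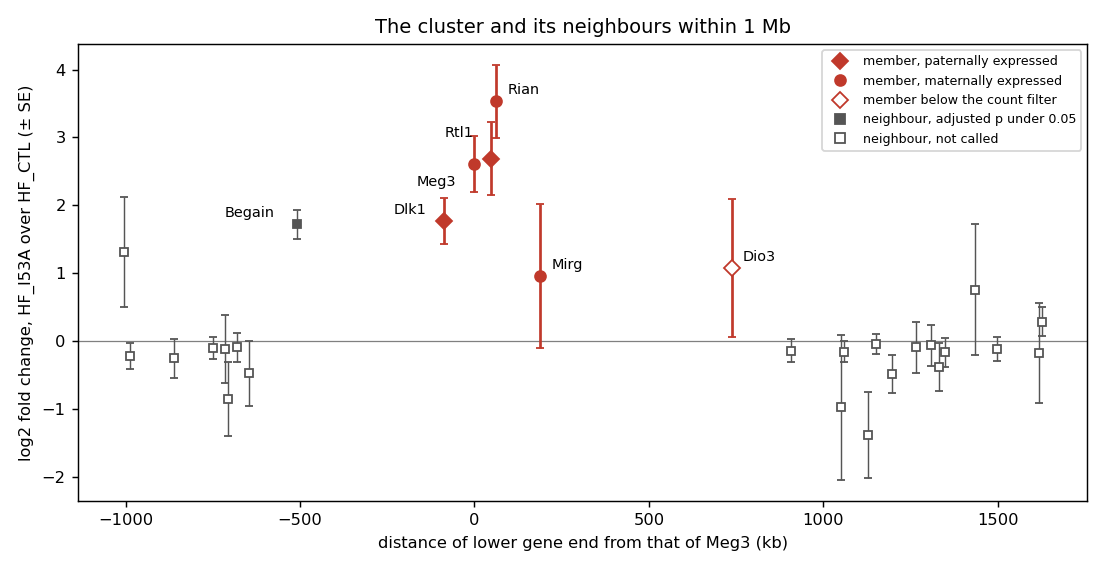
Log2 fold change of HF_I53A over HF_CTL (± SE from the edgeR fit) for the 6 members in red and the 23 tested neighbours within 1 Mb in grey, by distance in kb from Meg3. Begain and the members from Dlk1 to Rian lie well above 0, while the other neighbours lie between -1.38 and 1.31.

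Of 27 genes within 1 Mb with a row, 23 were tested, 1 rose and none fell, where 2.59% of all tested genes rose and 0.404% fell. The riser was Begain, a synapse-associated protein gene and the nearest counted neighbour on the Dlk1 side (109032187 to 109068217, minus strand). Begain had 44.0, 41.7 and 46.3 CPM in HF_I53A, against 10.7, 15.3 and 14.02 CPM in HF_CTL. Its log2 fold change was 1.72 (SE 0.21, edgeR quasi-likelihood test, adjusted p = 0.00247), and it was called in all 6 fits without 1 library. The 22 other neighbours had a median log2 fold change of -0.15, 20 of them lay between -1 and 1, and 19 were below 0, each without passing the test. They include Yy1, which encodes a zinc finger protein known to bind imprinted genes, with -0.10 (SE 0.16, adjusted p = 0.853), and Ppp2r5c, the first counted gene beyond Dio3, with -0.14 (SE 0.17, adjusted p = 0.788).

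Within a library Rian stood in a different proportion to Meg3 in the groups. Rian had 18.7, 19.2 and 19.02 reads per 100 Meg3 reads in HF_I53A, against 8.25, 7.35 and 11.8 in HF_CTL. The mutant libraries were almost equal and all above the controls, although their Meg3 levels differed by up to 2.29 times. This ratio does not depend on how libraries are scaled to each other. Rtl1 had 9.97, 8.15 and 11.2 reads per 100 Meg3 reads in HF_I53A, against 6.31, 12.7 and 9.31 in HF_CTL, and the groups overlapped. Dlk1 had 12.4, 15.2 and 8.14 reads per 100 Meg3 reads in HF_I53A, against 25.7, 36.7 and 10.1 in HF_CTL. Here HF_CTL replicate 3 lay among the mutants. Mirg had 0.456, 2.12 and 0.693 reads per 100 Meg3 reads in HF_I53A, against 0.971, 11.8 and 0.490 in HF_CTL, which overlapped. Rtl1 had 53.3, 42.5 and 59.02 reads per 100 Rian reads in HF_I53A, against 76.5, 172.2 and 79.2 in HF_CTL, so every mutant library was below every control. Dlk1 reads per 100 Rtl1 reads overlapped, at 72.5 to 186.7 in HF_I53A and 108.8 to 407.7 in HF_CTL.

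Set against each other, the maternal and paternal members were both higher in the mutants. The summed maternal members reached 100.2, 140.2 and 231 CPM in HF_I53A, against 15.3, 18.3 and 39.0 CPM in HF_CTL. The summed paternal members reached 19.8, 28.3 and 37.8 CPM in HF_I53A, against 4.91, 7.97 and 7.27 CPM in HF_CTL. Neither sum overlapped between groups, and the maternal and paternal members differed in the same direction. Maternal reads per paternal read were 5.05, 4.96 and 6.10 in HF_I53A, against 3.12, 2.30 and 5.37 in HF_CTL, and overlapped through HF_CTL replicate 3. The mean log2 ratio was higher by 0.66 in HF_I53A, or by 1.02 without Rtl1. It was higher by 0.38 without HF_CTL replicate 2 and by 1.00 without HF_CTL replicate 3.

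**Figure D3:**
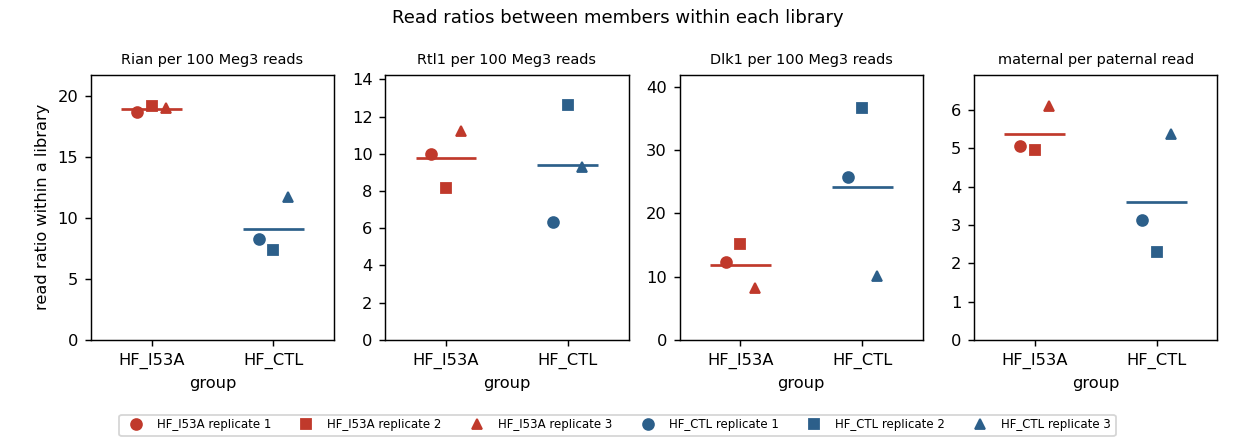
Read ratios between members within each library, with HF_I53A in red left of HF_CTL in blue and a bar at the group mean. Rian per Meg3 reads separates the groups (18.7 to 19.2 against 7.35 to 11.8), while the other ratios plotted overlap.

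Libraries that share a replicate number tended to deviate together, so ratios between same-numbered libraries were also taken. Meg3 was 5.99, 7.52 and 5.55 times as high in HF_I53A as in HF_CTL in pairs 1 to 3. Rian was 13.6, 19.6 and 8.98 times as high, Rtl1 9.47, 4.84 and 6.70 times, and Dlk1 2.88, 3.12 and 4.46 times. For these members the groups did not overlap, so any pairing of libraries points the same way and the shared direction adds nothing. Dlk1 stayed below the other 3 in each pair. Mirg was 2.82, 1.34 and 7.85 times as high, and Dio3 2.55, 3.33 and 0.916 times, so Dio3 was lower in the mutant of pair 3. With the replicate number as a block the SE of Meg3 was 0.14 and that of Rian 0.30, with log2 fold changes of 2.65 and 3.68. The maternal to paternal log2 ratio was higher in the mutant by 0.69, 1.11 and 0.19 in the pairs.

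**Figure D4:**
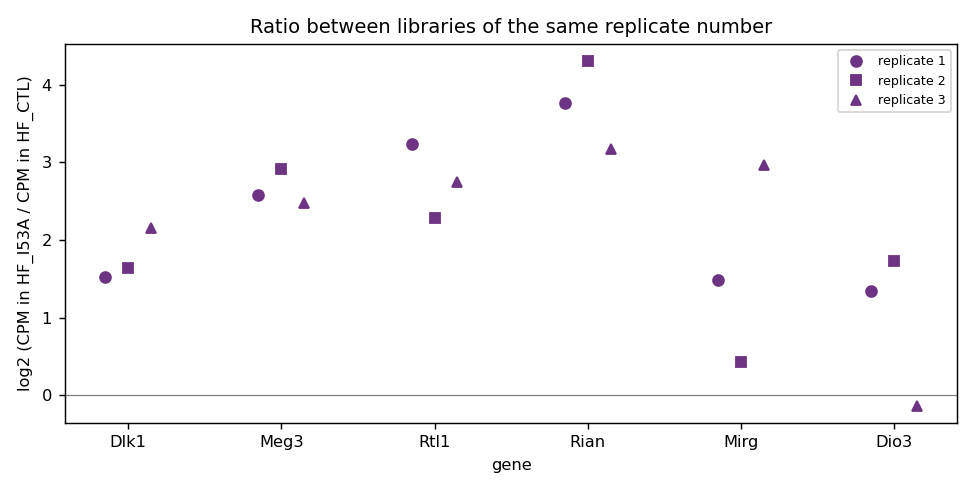
Log2 ratio of CPM in HF_I53A over HF_CTL for libraries of the same replicate number, by member. Meg3 lies between 2.47 and 2.91 and Dlk1 between 1.53 and 2.16, while Dio3 has a pair below 0 at -0.13.

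The interval holds 71 further genes with a row, 61 of them miRNA and 7 snoRNA loci. Reads there may come from longer RNA that crosses the locus, and their origin was not tested. They are not taken as a measure of mature miRNAs or snoRNAs, since libraries of this kind are made from fragments of long RNA. The miRNA loci had 40, 50 and 159 reads in all in HF_I53A, against 20, 2 and 8 in HF_CTL, or 2.19, 2.98 and 10.6 CPM against 1.36, 0.126 and 0.454 CPM. Of the 61 miRNA loci, 29 had a read in some HF_I53A library and 9 in some HF_CTL library, and all 9 were among the 29. Mir379, with 0, 0 and 5 reads in HF_I53A and 6, 0 and 0 in HF_CTL, was the 1 locus of the 29 without a higher total in HF_I53A. HF_I53A replicate 3 supplied most of the mutant reads. Without it the mutant libraries still lay above the controls, by a small margin over HF_CTL replicate 1.

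The 7 snoRNA loci, all inside Rian, had 41, 60 and 130 reads in HF_I53A, against 7, 6 and 30 in HF_CTL. All 7 had a higher total in the mutants, but they share the host Rian and only 2 passed the filter on low counts. DQ267102 had 3, 5 and 5 reads in HF_I53A, against 0, 0 and 7 in HF_CTL, so its highest library was a control. AF357425 led with 21, 30 and 72 reads in HF_I53A, against 3, 6 and 16 in HF_CTL, and AF357359 followed with 14, 15 and 28 against 4, 0 and 5. The order of libraries was that of Rian within the mutants. Per 100 Rian reads the snoRNA loci had 14.3, 16.1 and 23.7 reads in HF_I53A, against 41.2, 33.3 and 41.7 in HF_CTL, so the gene Rian differed more than the loci inside it.

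**Figure D5:**
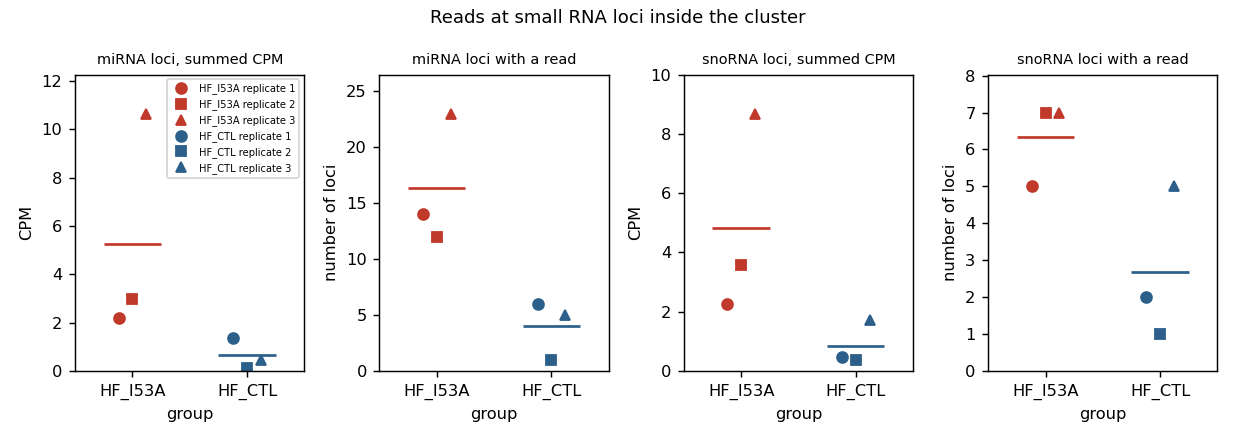
Summed CPM and number of loci with a read, for the 61 miRNA and 7 snoRNA loci inside the cluster, by library, with HF_I53A in red left of HF_CTL in blue and a bar at the group mean. Summed CPM of both classes is higher in each HF_I53A library than in any HF_CTL library, with HF_I53A replicate 3 at 10.6 and 8.69 CPM.

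The miRNA loci that carried the mutant reads are shown by their mature products, with the seed (bases 2 to 8) in capitals. They are 6 of the 10 miRNA loci with at least 10 reads over all libraries, chosen after their values were seen. Mir377 lies inside Mirg, whose groups overlapped, and Mir1188 and Mir370 lie inside Rian. Sequences are from RefSeq, GRCm38.p6, chromosome 12, plus strand.
mmu-miR-370-3p: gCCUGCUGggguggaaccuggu
mmu-miR-493-3p: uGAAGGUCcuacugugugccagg
mmu-miR-665-3p: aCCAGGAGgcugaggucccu
mmu-miR-3070-2-3p: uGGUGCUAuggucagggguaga
mmu-miR-1188-5p: uGGUGUGAgguugggccagga
mmu-miR-377-3p: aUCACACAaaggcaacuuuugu
Mir370 had 0, 15 and 13 reads in HF_I53A and none in HF_CTL, and Mir493 had 5, 1 and 10 reads and none. Mir665 had 5, 2 and 22 reads in HF_I53A, against 0, 2 and 2 in HF_CTL. Mir3070b had 13, 6 and 3 against 0, 0 and 1, and Mir377 had 2, 9 and 14 against 1, 0 and 0. Mir1188 had 1, 3 and 35 reads in HF_I53A, against 7, 0 and 3 in HF_CTL, so its excess rests on HF_I53A replicate 3. A count of 0 allows up to 3 reads in a library, which is 0.164 to 0.204 CPM. Among the 113 mature names of the interval 104 seeds differ, and only 9 seeds are shared, each by 2 names. The shown miR-3070-2-3p shares its seed with miR-3070-3p, and the other 5 shown share theirs with no other name of the interval.

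A further set of miRNAs lies across Rtl1 and links the maternal and paternal transcripts by sequence. The maternal RNA there is antisense to Rtl1, and miRNAs cut from it are known in mouse to cleave Rtl1 transcript. Of 13 mature sequences inside the Rtl1 gene, 11 are complementary over their whole length to the Rtl1 transcript of GENCODE M21, which is 6358 bases long, and the other 2 are the products of Mir3071 on the strand of Rtl1. The examples below show the mature sequence with its seed in capitals, then the matching stretch of the Rtl1 transcript with the bases opposite the seed in capitals.
mmu-miR-127-3p: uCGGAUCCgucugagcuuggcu
Rtl1 site of miR-127-3p: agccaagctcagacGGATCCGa
mmu-miR-433-3p: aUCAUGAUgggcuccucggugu
Rtl1 site of miR-433-3p: acaccgaggagcccATCATGAt
mmu-miR-136-5p: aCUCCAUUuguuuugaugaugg
Rtl1 site of miR-136-5p: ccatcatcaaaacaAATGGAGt
These stretches start at bases 2642, 3749 and 199 of the transcript. All 7 miRNA loci inside Rtl1 had 0 reads in each of the 6 libraries, while Rtl1 itself had 153, 158 and 324 reads in HF_I53A and 13, 31 and 57 in HF_CTL. The sources used here do not state how reads on more than 1 annotated gene were counted, so a 0 at a locus inside Rtl1 does not show that no read fell there.

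Genes that set and read the imprint were looked at beside the cluster. Of 19 listed genes of imprint control 17 were tested, 1 rose and none fell, against 2.59% of all tested genes that rose, and the median log2 fold change was -0.12 against 0.00 over all tested genes. The gene that rose was Zfp57, a zinc finger protein that protects methylation at imprinting control regions. Zfp57 had 30.7, 31.9 and 25.1 CPM in HF_I53A, against 6.95, 4.90 and 12.2 CPM in HF_CTL (log2 fold change 1.86, SE 0.33, edgeR quasi-likelihood test, adjusted p = 0.0155). It was not called without HF_CTL replicate 1 (adjusted p = 0.0796), HF_I53A replicate 1 (0.0619) or HF_I53A replicate 2 (0.0731). With the replicate number as a block 3 rose and 3 fell, where 6.09% of all tested genes rose, 3.29% fell and 9.38% were called in all. Ezh2, the methyltransferase of PRC2, was at 84.5 ± 11.7 CPM in HF_I53A and 129.3 ± 10.2 CPM in HF_CTL (SD, n = 3 each; edgeR adjusted p = 0.0869, and 0.0146 under the block). The maintenance methyltransferase Dnmt1 (means of 175.0 CPM in HF_I53A and 226.9 CPM in HF_CTL, adjusted p = 0.325) did not pass in either fit.

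Genes that act with the products of Dio3 and Dlk1 were also looked at. Slc7a8, a transporter of amino acids that also accepts thyroid hormone, had 6.80, 5.07 and 11.6 CPM in HF_I53A, against 28.3, 61.7 and 48.4 CPM in HF_CTL, and fell (log2 fold change -2.57, SE 0.37, edgeR quasi-likelihood test, adjusted p = 0.0063). The activating deiodinase Dio2 was at 15.2 ± 5.79 CPM in HF_I53A and 22.4 ± 6.65 CPM in HF_CTL (SD, n = 3 each; adjusted p = 0.483), and Dio1 had no read in any library. None of 19 tested Notch pathway genes of 23 listed was called by edgeR or DESeq2, 0 had an unadjusted p under 0.05, and the list median was 0.10. Of all 14345 tested genes edgeR called 430 and DESeq2 986, so a count of 0 calls among 19 is near the background. An unadjusted edgeR p under 0.05 was reached by 2143 of the 14345. The receptor gene Notch2 had the smallest p, with means of 364.9 CPM in HF_I53A and 269.9 CPM in HF_CTL (edgeR adjusted p = 0.398), and passed under the block (0.0293). The ligand gene Dll4 came next, with means of 1.40 CPM in HF_I53A and 0.514 CPM in HF_CTL (adjusted p = 0.480).

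Markers of other cells that could bring Dlk1 and Meg3 into the sort were summed. The 18 dermal fibroblast markers reached 3058 to 3575 CPM in HF_I53A, against 2701 to 3022 CPM in HF_CTL, without overlap, as were 12.1% of single genes in this direction. Fn1 (means of 1216 CPM in HF_I53A and 1045 CPM in HF_CTL), Postn (862 and 811 CPM) and Dcn (454 and 410 CPM) supplied most of the sum. Col1a1, Col3a1, Col6a3, Lum, Dpt and Pdgfrb of the same list had lower means in HF_I53A. Of the 17 tested, Thy1 and Fbn1 rose and none fell, where 2.59% of all tested genes rose and 0.404% fell, and the list median was 0.15. Thy1 averaged 39.5 CPM in HF_I53A and 9.61 CPM in HF_CTL (edgeR adjusted p = 0.00761). Fbn1 averaged 87.1 CPM in HF_I53A and 24.1 CPM in HF_CTL (adjusted p = 0.0137), with an adjusted p of up to 0.0756 when HF_CTL replicate 1 was left out. Col1a1, the main fibroblast collagen, was at 63.7 to 125.9 CPM in HF_I53A and 90.3 to 162.9 CPM in HF_CTL, and Pdgfra at 4.83 to 7.51 CPM in HF_I53A and 2.66 to 7.04 CPM in HF_CTL. The summed levels of 18 dermal papilla markers (2549 to 3146 CPM in HF_I53A against 3126 to 3404 CPM in HF_CTL), 14 skeletal muscle markers (2.68 to 5.95 CPM in HF_I53A against 3.89 to 10.3 CPM in HF_CTL) and 10 endothelial markers (15.5 to 34.1 CPM in HF_I53A against 13.3 to 16.9 CPM in HF_CTL) overlapped between groups. Immune markers (14.5 to 26.9 CPM in HF_I53A against 15.7 to 71.01 CPM in HF_CTL) and the 12 Schwann cell and melanocyte markers (131 to 237 CPM in HF_I53A against 151 to 237 CPM in HF_CTL) overlapped too. The papilla sum was led by Ptch1 (means of 1683 CPM in HF_I53A and 1995 CPM in HF_CTL). The 13 tested papilla markers had a median log2 fold change of 0.38, so their sum and their median differed in direction. Of the papilla markers Bmp4 alone rose (means of 76.3 CPM in HF_I53A and 36.2 CPM in HF_CTL, edgeR adjusted p = 0.0115), and of the follicle keratinocyte markers Lgr5 alone fell (means of 83.7 CPM in HF_I53A and 177.7 CPM in HF_CTL, adjusted p = 0.0125). Of the 6 fits that left a library out, Bmp4 was called in 4 and Lgr5 in 3. Both had their highest adjusted p without HF_I53A replicate 2 (edgeR, 0.0708 and 0.0684). Under the block 4 fibroblast and 2 papilla markers rose and none fell, and 3 follicle keratinocyte markers rose and 3 fell, where 6.09% of all tested genes rose and 3.29% fell. No marker of these lists with a row was at 0 in all libraries. Replicate 3 had the most Meg3, Rian and Rtl1 in each group. It also had the highest summed muscle, endothelial, immune, Schwann cell and melanocyte, and follicle keratinocyte markers and the lowest summed papilla markers of each group. Its fibroblast sum was 3068 CPM in HF_I53A, where the other libraries had 3058 and 3575 CPM, and 3022 CPM in HF_CTL, where the others had 2766 and 2701 CPM. The part of these cells in the levels of the cluster was not tested.

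The genes outside the cluster whose log2 CPM followed Meg3 most closely over the 6 libraries, among 10562 compared with a mean of at least 5 CPM, were Dab1 (Pearson r 0.998), Clcf1 (0.997), Tgfb1i1 (0.995), Ppp1r36 (0.995) and Ly6e (0.994). Rian reached 0.997 and Rtl1 0.980, while Dlk1 was at 0.879, Dio3 at 0.592 and Mirg at 0.424. For Dlk1 the closest were Tmem214 (0.996), LOC106557447 (0.990), Scd2 (0.990), Stk39 (0.988) and Dusp9 (0.988). The 6 points share the difference between groups and the depth of their libraries, so these values only describe likeness.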

How the data were processed

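RNA of sorted follicle cells was sequenced in 6 libraries, and the values in the deposited files are unnormalized whole-number counts, 1 per gene symbol. Per the submitters' processing notes, the tools were HTSeq 0.6.1, TopHat2 2.0.13, DESeq2 1.6.3 and Cufflinks 2.2.1 and the build mm10, with no role given. Per the labels' protocols, RNA was amplified from 10 ng of total RNA with the Ovation RNA-seq System V2 before 100-nucleotide single reads were taken. The protocol text describes a Sca1-positive sort of interfollicular epidermis, whereas all sample labels say hair follicle.

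All 6 libraries entered 1 fit by group in edgeR 4.0.16 (R 4.3.3; quasi-likelihood, TMM, filterByExpr), and p-values were adjusted by Benjamini-Hochberg over 14345 genes. Called means a two-sided adjusted p under 0.05. CPM use effective library sizes, log2 CPM a prior count of 2, and SEs come from the F statistic. Intervals and floors cover counting error only. None of the 15 library pairs agreed within sampling noise (lowest chi-square over its degrees of freedom 25.1). Deviations of same-numbered libraries correlated at 0.168 to 0.363 and all other pairs at 0.0891 or less, with sex genes left out, so the numbers were taken to pair the libraries. Blocked values are given where they change a call. Steps were tested on simulated data. The members and lists were chosen with earlier results of these data known. Genes named are the members, other genes of the interval, called neighbours, called genes of a list (at most 4, or failing that the 2 with the smallest p), Ring1, Rnf2, and 5 genes by likeness to Dlk1 and to Meg3. Yy1, Ppp2r5c, Ezh2, Dnmt1, Igf2, Dio2, Dio1, H19, Peg3, Igf2r, and the markers named without a call (among them Col1a1, Pdgfra, Krt5 and Ly6a) were added after their values were seen. Alternatives were DESeq2 1.42.0, other size factors, other filters, the block and leaving out each library. Protein sequences were not used here, and the counts of the thyroid hormone list are not reported here.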

Additional observations from a re-analysis of the deposited data

How the results depend on the processing

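The members kept the sign of their log2 fold change under all alternatives run. Size factors, filters, DESeq2 and the replicate block left Dlk1 at 1.76 to 1.81, Meg3 at 2.59 to 2.66, Rtl1 at 2.67 to 2.73, Rian at 3.51 to 3.68, Mirg at 0.95 to 1.47 and Dio3 at 1.00 to 1.15, where no stricter filter could be used for Dio3. Without 1 library the ranges were 1.61 to 2.02, 2.21 to 3.16, 2.12 to 3.21, 3.13 to 4.44, 0.27 to 3.10 and 0.80 to 1.39. The maternal to paternal log2 ratio was higher by 0.66 in HF_I53A with and without the replicate block. These values must be equal when both groups hold the same replicate numbers, so they are no check.

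Of all tested genes 430 were called, against 986 with DESeq2, 1345 with the replicate block and 163 to 664 without 1 library. The imprint control list had 1 call, against 2 with library totals only, 4 with DESeq2, 6 with the block and 0 to 1 without 1 library. Other imprinted genes had 5 calls, against 8 with DESeq2, 10 with the block and 4 to 8 without 1 library. The Notch list had 0 calls, against 1 with the block, and the adipocyte list 1, against 0 to 1 without 1 library. The cause was not tested. The block changed no call of a gene named here other than those given with it and Krt5 (edgeR adjusted p = 0.477, and 0.0476 with the block). The value without Rtl1 was added after seeing the data. Low counts limit Dio3, Mirg and the small RNA loci, and the unstated strand limits Rtl1.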

Other observations

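Imprinted genes elsewhere in the genome were tested as a list. Of 47 listed genes 40 were tested, 5 rose and none fell, where 2.59% of all tested genes rose, and the list median was 0.23 on the log2 scale. Sfmbt2, which encodes a Polycomb-related protein, was at 61.6 ± 1.75 CPM in HF_I53A and 3.59 ± 0.434 CPM in HF_CTL (SD, n = 3 each; log2 fold change 4.10, SE 0.21, edgeR quasi-likelihood test, adjusted p = 3.2e-05). The growth factor receptor adaptor Grb10 averaged 215.4 ± 37.9 CPM in HF_I53A and 33.4 ± 4.08 CPM in HF_CTL (2.69 on the log2 scale, SE 0.19, adjusted p = 0.00026). The cell cycle inhibitor Cdkn1c was at 64.3 ± 12.9 CPM in HF_I53A and 9.91 ± 1.96 CPM in HF_CTL (2.70, SE 0.24, adjusted p = 0.000526), and Ppp1r9a at 63.4 ± 9.95 CPM in HF_I53A and 10.4 ± 3.70 CPM in HF_CTL (2.61, SE 0.28, adjusted p = 0.0011). The growth factor Igf2 was at 1474 ± 329 CPM in HF_I53A and 677 ± 139 CPM in HF_CTL (1.12, SE 0.21, adjusted p = 0.0218), a call kept in 2 of the 6 fits that left a library out (adjusted p = 0.0994 without HF_CTL replicate 1). With the replicate block 10 rose and none fell, where 6.09% of all tested genes rose and 3.29% fell under the block. H19, the noncoding partner of Igf2, was at 2424 ± 317 CPM in HF_I53A and 1972 ± 403 CPM in HF_CTL (adjusted p = 0.538), Peg3 at 1080 ± 140 CPM in HF_I53A and 971 ± 169 CPM in HF_CTL (adjusted p = 0.77) and Igf2r at 177.0 ± 20.7 CPM in HF_I53A and 141.1 ± 23.96 CPM in HF_CTL (adjusted p = 0.435). Of 9 tested adipocyte genes (11 listed) none rose and 1 fell, where 0.404% of all tested genes fell. It was Pparg, at 0.831 ± 0.578 CPM in HF_I53A and 10.3 ± 5.95 CPM in HF_CTL (-3.63, SE 0.69, adjusted p = 0.0215), a call lost in 3 of those 6 fits (adjusted p = 0.0803 without HF_CTL replicate 2).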
